A study of Mus musculus with 12 samples.

Results

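Iron handling in the liver was followed through 10 genes: Hamp, Trf, Tfrc, Tfr2, Hfe, Slc40a1, Fth1, Ftl1, Slc11a2 and Cp. Their probe sets were taken from the platform annotation by gene symbol, also where a probe set carried several symbols. All 10 genes had a probe set, 30 in all, on an array whose probe sets with 1 symbol name 12393 genes. Of these, 27 entered the tests and 3 were array control probe sets for Tfrc. Trf was measured only by a probe set also annotated to Srprb, and the 3 probe sets for Ftl1 all carried Ftl1-ps2 as well. For each gene the probe set with the highest mean log2 signal over all arrays is called the lead probe set, and it is meant where no other is named.

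The 12 livers came from male mice, each 6 weeks old, that carried human alpha1-antitrypsin, a secreted protease inhibitor, as a transgene restricted to hepatocytes and silenced by doxycycline. M mice carried its wild-type form and Z mice its mutant form, which misfolds in the endoplasmic reticulum. The M off and Z off groups (M1 and Z1 in the sample titles) drank doxycycline at 40 µg/mL from conception. The M on and Z on groups (M4 and Z4) drank none, so transgene expression and absence of the drug cannot be told apart. The Z form and its line cannot be told apart either. Each group held 3 arrays, labelled biological replicates, each from the liver of a mouse, and neither strain nor the number of founder lines is given in the sources used here. All 9 hepatocyte markers with a probe set lay above the median level of the array.

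Hepatocytes set the iron supply of the whole body. They secrete hepcidin, the product of Hamp, which binds the iron exporter ferroportin (Slc40a1) and causes its degradation, so that less iron leaves gut cells and macrophages. Hamp transcription rises with iron through bone morphogenetic proteins, SMAD factors and the membrane proteins HFE, transferrin receptor 2 and hemojuvelin, and with inflammation through interleukin 6 and STAT3. Iron circulates on transferrin (Trf), enters cells through transferrin receptor 1 (Tfrc), crosses the endosome membrane through DMT1 (Slc11a2), and is stored in ferritin, a shell of heavy (Fth1) and light (Ftl1) chains. Ceruloplasmin (Cp) oxidises iron so that transferrin can bind it. Iron regulatory proteins also act on several of these transcripts after transcription: in iron-poor cells they stabilise Tfrc mRNA and hold back ferritin translation, and an array that measures mRNA does not see the latter.

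The mouse has a second hepcidin gene, Hamp2, whose probe sets are described beside those of Hamp below. The 250 bases before the start of each are shown because the genes are near copies and because the inputs to Hamp named above meet there. In the RefSeq promoter table (GRCm38.p6) they lie on the minus strand at chr7:30944030-30944279 for Hamp and chr7:30924182-30924431 for Hamp2. Capitals mark matches to 2 motifs, GGCGCC (bound by SMAD factors) and TTCNNNGAA (bound by STAT factors), and the stretch of Hamp2 that aligns with them.

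Hamp: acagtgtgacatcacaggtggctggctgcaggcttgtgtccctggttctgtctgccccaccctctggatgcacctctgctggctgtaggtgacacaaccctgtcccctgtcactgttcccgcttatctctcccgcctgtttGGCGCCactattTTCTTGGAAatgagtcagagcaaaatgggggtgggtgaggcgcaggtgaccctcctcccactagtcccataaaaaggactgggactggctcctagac

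Hamp2: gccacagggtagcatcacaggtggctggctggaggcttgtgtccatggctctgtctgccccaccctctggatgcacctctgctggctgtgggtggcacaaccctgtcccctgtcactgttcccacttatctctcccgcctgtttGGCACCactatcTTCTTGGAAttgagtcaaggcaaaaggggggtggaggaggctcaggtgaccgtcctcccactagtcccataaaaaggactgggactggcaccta

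Over 247 aligned bases 227 were identical (91.9%). Hamp held GGCGCC from 109 to 104 bases before the start and the STAT motif from 97 to 89 bases before it. In Hamp2 the aligned stretch differs from GGCGCC by G145A, with positions counted from 1 at the 5′ end of the Hamp sequence shown, and GGCGCC had no match in that window. The STAT motif was present in both. Both motifs read the same on either strand and did not overlap. GGCGCC occurs in 9.59% and the STAT motif in 7.02% of the 32851 windows of this length in the table, and 0.368% hold both. Of the 7 iron genes with a window in the table, Hamp and Tfrc held GGCGCC and Hamp alone held the STAT motif. A match is a description of letters and not evidence of binding.

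No iron handling gene passed the test in any comparison. The test was limma on log2 signals of all 12 arrays, with p-values adjusted by Benjamini and Hochberg over 22626 probe sets and a call at an adjusted p under 0.05. Where a difference is given below it is on the log2 scale, and intervals are 95% intervals of that single difference. With 3 animals a group these intervals are wide. For the 10 lead probe sets they reached between 0.38 and 0.68 to either side of the pairwise difference. Changes smaller than about that could not be told from 0 even before adjustment. A call after adjustment asks for more, so larger changes could be missed too. The lead Tfrc difference of 0.66 between Z off and M off, whose interval left out 0, had an adjusted p of 0.62 in limma. In bulk liver, fewer cells of a type and less RNA per cell cannot be told apart.

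Between Z on and Z off, 0 of 27 iron gene probe sets were called in limma, where 0.0133% of all probe sets were, and the smallest adjusted p was 0.671. At an unadjusted p under 0.05 there were 2 (7.41%) against 6.29% of all, and on 2 the arrays of the groups did not overlap, against 11.8% of all (7.41% here). Between M on and M off, 0 were called, as of all probe sets (0%). In this pair 1 (3.7%) had an unadjusted p under 0.05 against 5.18% of all, and 5 (18.5%) had groups that did not overlap against 10.5%. Between Z on and M on, 0 were called against 0.00884% of all, 0 had an unadjusted p under 0.05 against 6.85%, and 2 did not overlap against 12.1%. The comparison of Z off with M off, a comparison of the lines under doxycycline, gave 0 calls against 0.0707%. Here 4 (14.8%) had an unadjusted p under 0.05 against 7.73% of all, and 7 (25.9%) had groups apart against 15.1%, with 5 higher and 2 lower in Z off. These 7 came from 6 genes, and probe sets of a gene share their transcript.

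For the interaction, which asks whether the on to off difference was unequal in the lines, 0 were called (0% of all probe sets) and 0 had an unadjusted p under 0.05 against 5.18%. For on against off over both lines, 0 were called against 0.00884% and 2 had an unadjusted p under 0.05 against 5.84%. For the Z against the M line over both states, 0 were called against 0.0884% and 3 had an unadjusted p under 0.05 (11.1%) against 9.09%. The median difference over the 27 probe sets lay between -0.06 and 0.09 in these 7 contrasts, and over all probe sets between -0.03 and 0.03.

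**Figure D1:**
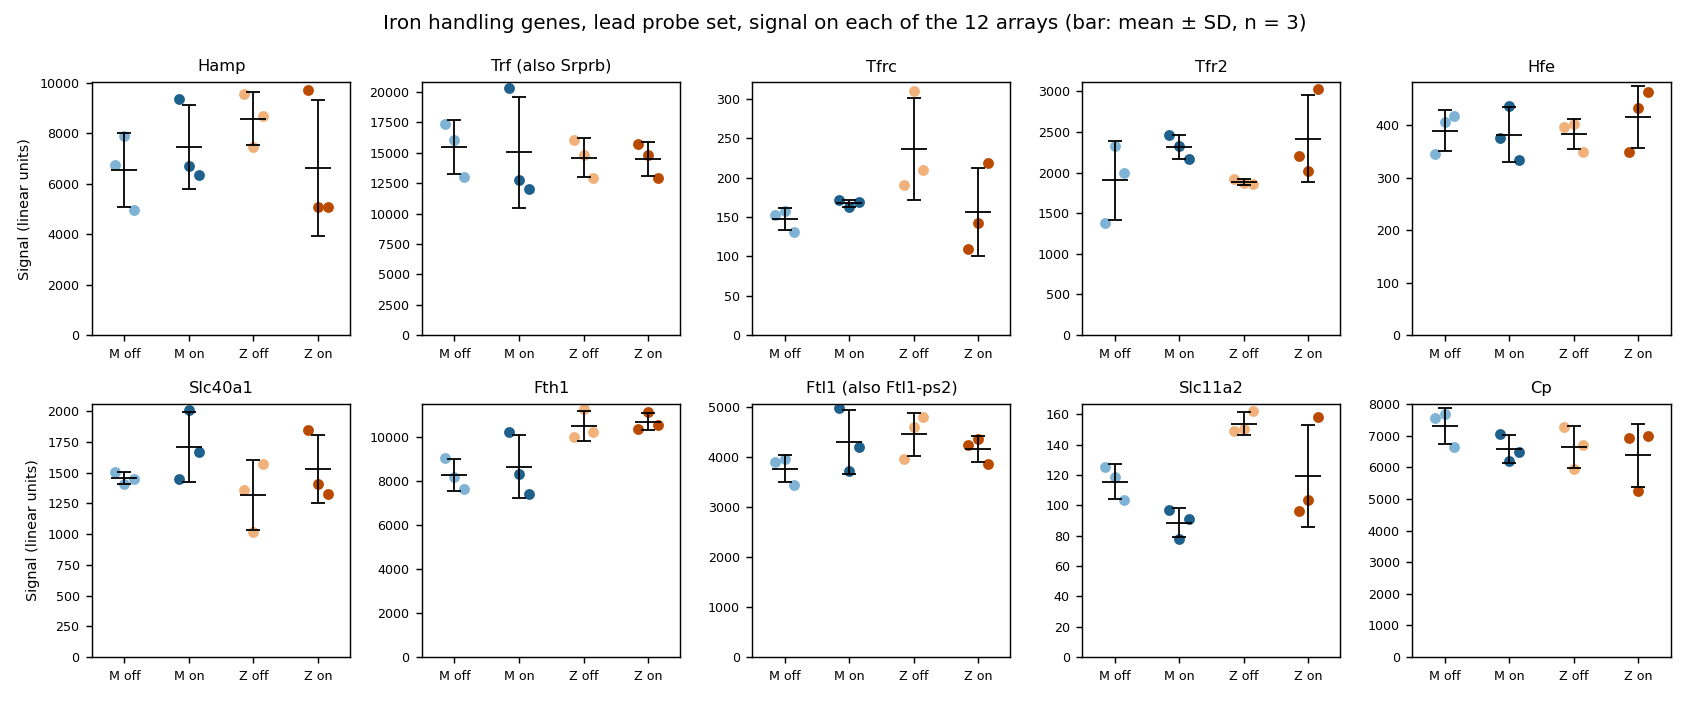
Linear signal of the lead probe set of each of the 10 iron handling genes on each of the 12 arrays, with a panel and scale per gene; points are arrays and bars the mean ± SD (n = 3). Fth1 lies higher on the Z than on the M arrays, except for M on replicate 1 at 10233.8, and Slc11a2 reads 77.8 to 96.6 in M on and 103.2 to 125.2 in M off; neither the line difference of Fth1 nor this difference passed the test.

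Hepcidin mRNA was abundant in every group. The lead Hamp probe set (1419197_x_at) read 6751.4, 7882.5 and 4975.5 in M off, 9354.1, 6690.7 and 6334.0 in M on, 9562.7, 7474.9 and 8685.9 in Z off, and 9732.6, 5079.5 and 5068.3 in Z on. Z off lay in the upper part of the range and overlapped M off only through M off replicate 2, and Z on held both the highest array and, after M off replicate 3, the next lowest. The Z on minus Z off difference was -0.44 (95% interval from -1.11 to 0.24, SE 0.30, adjusted p = 0.871), which spans 0.463-fold to 1.18-fold. The M on minus M off difference was 0.19 (from -0.48 to 0.87), and the interaction was -0.63 (from -1.58 to 0.32, adjusted p = 0.933).

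The other Hamp probe set (1419196_at) read 6400 ± 1410 in M off, 5980 ± 290 in M on, 8030 ± 1400 in Z off and 6630 ± 2420 in Z on (mean ± SD, n = 3 each). On both Hamp probe sets Z off had the highest mean, and the groups overlapped in all 4 pairwise comparisons. M on replicate 1 separated the probe sets, at 9354.1 on the lead and 5768 on the other.

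The brighter Hamp2 probe set (1436643_x_at) read 3187.2, 2907.4 and 3325.7 in M off and 9976.8, 8580.9 and 4016.6 in M on. It read 4516.7, 2915.2 and 3393.2 in Z off and 4338.9, 4287.2 and 1750.9 in Z on. All M on arrays lay above all M off arrays, and the Z groups overlapped each other. M on minus M off was 1.16 (from 0.22 to 2.10, adjusted p = 0.889) and the interaction -1.31 (from -2.65 to 0.02, adjusted p = 0.933), so neither passed. The other Hamp2 probe set (1456289_at) was dim throughout, between 2.7 and 34.4, and its M on and M off arrays overlapped. The suffix of the brighter probe set of each gene is the one by which Affymetrix marks probes that may also bind other transcripts. Which of the near copies gave which part of these signals was not tested.

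**Figure D2:**
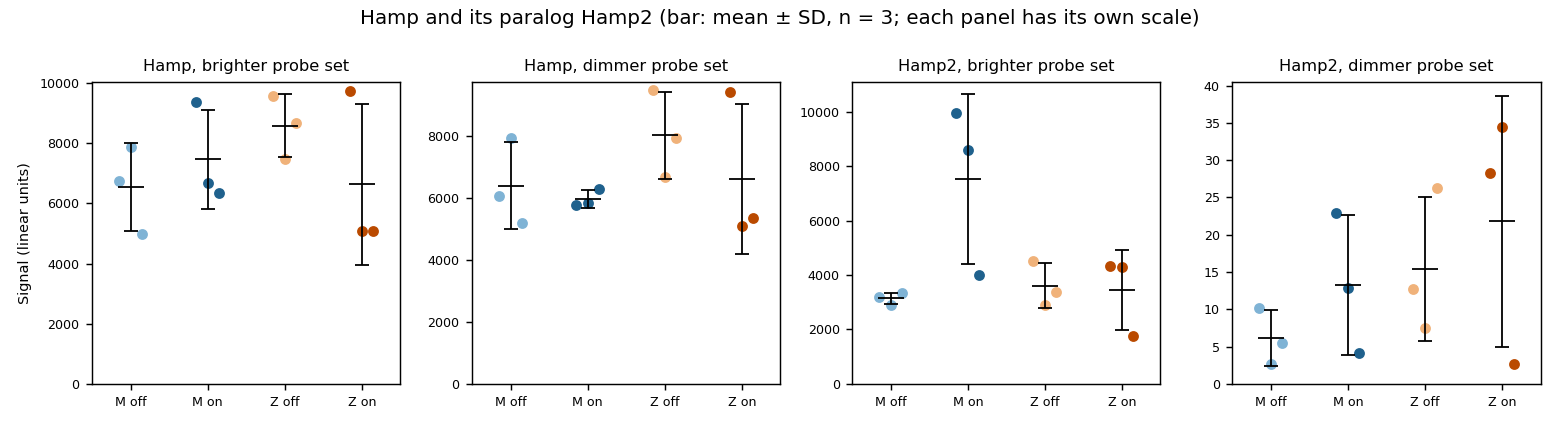
Linear signal of both probe sets of Hamp and both of Hamp2 on each array; points are arrays, bars the mean ± SD (n = 3), and each panel has its own scale. On both Hamp probe sets the on and off arrays of each line overlap, while the brighter Hamp2 probe set reads 4016.6 to 9976.8 in M on and 2907.4 to 3325.7 in M off; the dimmer Hamp2 probe set reads at most 34.4.

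The genes that act upstream of Hamp did not pass either. In the list of BMP and SMAD control of hepcidin, 19 of 22 entries had a probe set, and 0 were called in limma in any of the 7 contrasts. Of all probe sets 47% read higher in Z on than Z off and 48.9% in M on than M off. Between Z on and Z off, 7 were higher and 12 lower, with a median of -0.07 against -0.03 over all probe sets, and 2 had an unadjusted p under 0.05, both lower. These were Smad7, a feedback inhibitor of the pathway that BMP signals induce (-1.0, SE 0.37, adjusted p = 0.735), and Id3, a BMP target (-0.77, SE 0.29, adjusted p = 0.743). Between M on and M off, 7 were higher and 12 lower, and the 2 with an unadjusted p under 0.05 were higher: Id3 (1.26, SE 0.29, adjusted p = 0.489) and Id2 (0.88, adjusted p = 0.719). Id3 thus read lower in Z on than Z off and higher in M on than M off, and all arrays lay apart in both pairs. Groups lay apart on 11.8% of all probe sets in the Z pair and 10.5% in the M pair. In the Z pair the gap was narrow, with 361.9 on the highest Z on and 363.9 on the lowest Z off array. Bmp6, the ligand that rises with liver iron, was dim at 19.8 ± 6.99 in M off, 25 ± 7.86 in M on, 20.4 ± 21.3 in Z off and 33.1 ± 6.54 in Z on. Id1, a BMP target chosen after its values were seen, read 133 ± 34.5, 174 ± 36.3, 130 ± 30.3 and 111 ± 25.2 in that order.

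Of inflammatory and erythroid signals on hepcidin, 12 of 16 entries had a probe set. Between Z on and Z off 5 were higher and 7 lower (median -0.09), and Il6 had the smallest p (-1.95, SE 0.80, adjusted p = 0.758), on a dim probe set (mean 15.4 with the transgene off, 5.33 on). Between M on and M off 3 were higher and 9 lower (median -0.19, against -0.01 over all probe sets). Acute phase proteins, which share the interleukin 6 input with Hamp, read higher with the Z transgene on than off for 12 of 16 measured members. Their median was 0.19, and 0 were called in limma. Of all probe sets 47% read higher, with a median of -0.03. Saa1, Saa2 and Lbp, named after their values were seen, counted as higher only through Z on replicate 3. On them Z on replicates 1 and 2 lay below all Z off arrays. Itih4, also named after its values were seen, likewise counted as higher only through Z on replicate 3. It read 7471.8, 6337.1 and 9192.5 in Z on and 6978.3, 7182.5 and 7593 in Z off. Saa3 (1.12, SE 0.30, adjusted p = 0.627) and Apcs (1.16, adjusted p = 0.706), a pentraxin, had groups that did not overlap, as had 11.8% of all probe sets. Between M on and M off 7 were higher and 9 lower, with a median of -0.01.

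Z on replicate 3 stood apart in this group of genes. In genes singled out after their values were seen, it read 6737.2 for Saa1, a serum amyloid, where the 11 other arrays read at most 1589.5. It read 761.2 for Lcn2, a siderophore-binding protein, where the others read at most 54.9, and 11317.7 for the hemoglobin scavenger Hp, where they read at most 8319. The Hamp lead probe set on that array was 5068.3, the second lowest of the 12, and the brighter Hamp2 probe set was 1750.9, the lowest. Over the omissions of a single array the Hamp difference between Z on and Z off ranged from -0.75 to -0.28, and without Z on replicate 3 it was -0.28. A Hamp reading this low was not particular to that array. Z on replicate 2 read 5079.5 on the Hamp lead probe set, with 441.9 for Saa1 and 4.1 for Lcn2. Of the Z on arrays, replicate 1 lay far from the others on that probe set, at 9732.6, the highest of the 12.

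Among the genes of iron transport in blood and its sensing, Trf was among the brightest probe sets of the array (percentile 99.9 of mean log2 signal). Its probe set read 11998.7 at the lowest, 14775.35 at the median and 20296.2 at the highest of the 12 arrays. Z on minus Z off was -0.01 (from -0.53 to 0.51) and M on minus M off -0.07 (from -0.59 to 0.44). The widest group was M on, at 20296.2, 12783.7 and 11998.7. In each of the 4 groups replicate 1 read highest and replicate 3 lowest on this probe set, which no other iron gene probe set showed in all groups. The order was not particular to Trf. The bright hepatocyte markers Alb and Ttr, named after their values were seen, showed it in all groups as well. The highest signal of an array fell in this order in M off, M on and Z off, but not in Z on.

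Hfe, whose product joins the hepatic iron sensor, had the smallest ratio of highest to lowest array among the 10 lead probe sets (1.39). It read 390 ± 39.3 in M off, 382 ± 51.8 in M on, 383 ± 28.9 in Z off and 415 ± 59.2 in Z on. The Z on minus Z off interval ran from -0.30 to 0.52 and that of M on minus M off from -0.45 to 0.38. The dimmer Hfe probe set (1450702_at) read 46.0 ± 0.404 in Z off and 51.7 ± 3.43 in M off, which did not overlap but differed by only -0.17 (adjusted p = 0.933).

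The Tfr2 probe sets did not move alike. Tfr2 encodes the second transferrin receptor, an iron sensor of hepatocytes. The lead probe set (1459994_x_at, with the suffix for possible binding to other transcripts) read 1380.4, 2331.3 and 1998.3 in M off, 2461.1, 2328.6 and 2163.6 in M on, 1923.7, 1871.5 and 1854.2 in Z off, and 2203.5, 2018.1 and 3027.0 in Z on. The Z groups did not overlap, with a difference of 0.34 (from -0.18 to 0.85, adjusted p = 0.87), and M on minus M off was 0.32 (from -0.20 to 0.83, adjusted p = 1.00). The other probe set (1425381_a_at) lay between 1327.3 and 1843.1 on all arrays, its Z on minus Z off difference was -0.06 and its M on minus M off difference -0.05.

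Tfrc had the largest difference of the 10 lead probe sets between Z on and Z off and between Z off and M off. Its lead probe set (1452661_at) read 152.3, 157.6 and 131.5 in M off, 171.3, 162.1 and 168.7 in M on, 190.1, 310.5 and 209.6 in Z off, and 109.3, 141.8 and 218.3 in Z on. All Z off arrays lay above all M off arrays, and Z on overlapped Z off through Z on replicate 3. Z off minus M off was 0.66 (from 0.05 to 1.27, SE 0.27, adjusted p = 0.62), Z on minus Z off was -0.62 (from -1.24 to -0.01, SE 0.27, adjusted p = 0.791), and Z on minus M on was -0.16 (from -0.77 to 0.46). The intervals here are not adjusted for the number of probe sets. The interaction was -0.81 (from -1.68 to 0.05, adjusted p = 0.933).

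A dimmer Tfrc probe set (1422966_a_at) gave another order. It read 12.9, 15.2 and 11 in M off, 20.0, 34.6 and 19.9 in M on, 45.1, 44.3 and 19.4 in Z off, and 47.3, 35.7 and 23.0 in Z on. M off lay below every array of the other 3 groups. Z off minus M off was 1.39 (from 0.50 to 2.28, adjusted p = 0.432), M on minus M off was 0.89 (adjusted p = 0.964), and Z on minus Z off was 0.00. The dimmest tested Tfrc probe set (1422967_a_at) stayed between 1.4 and 19.0, and the array controls for the 3′, 5′ and middle parts of the transcript reached at most 36.7, 30.0 and 7.4. Higher Tfrc in Z off than in M off was thus seen on the lead and the next probe set, while of these only the lead read lower in Z on than in Z off.

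Erythroid cells carry much transferrin receptor, so their markers are given beside Tfrc. Of 15 erythroid markers 9 had a probe set, none was at 0 on any array, and 6 lay below the median level of the array. Their summed signal was 1316.8 to 1747.1 in Z off, 447 to 593 in M off, 445.5 to 534.1 in M on and 336 to 528.1 in Z on. Alas2, the erythroid enzyme that starts heme synthesis, averaged 1280 ± 169 in Z off, 274 ± 28.3 in M off, 246 ± 12.8 in M on and 175 ± 37.2 in Z on. It was higher in Z off than in M off (log2 difference 2.22, adjusted p = 0.00832 in limma). It fell from Z off to Z on (log2 difference -2.88, adjusted p = 0.00159 in limma). Without Alas2 the sum over the other 8 markers was 198 to 291 in Z off against 192.8 to 286.4 in M off and 199.5 to 317.4 in Z on. The erythroid transcription factor Gata1 was dim, at 55.5 ± 19.6 in Z off and 25.1 ± 5.38 in M off. Epor went the other way, at 44.2 ± 9.24 in Z off, 59.5 ± 8.08 in M off and 69.7 ± 5.51 in Z on. Between Z off and M off 5 of the 9 markers read higher in Z off and 4 lower. The part of erythroid RNA in the Tfrc signal was not tested. The beta-actin 3′ to 5′ ratio, a sign of RNA length, was also lowest in Z off, at 2.18 to 2.53, against 2.72 to 3.89 in M off, 3.09 to 4.38 in M on and 2.44 to 5.16 in Z on. Its part in the result was not tested.

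**Figure D3:**
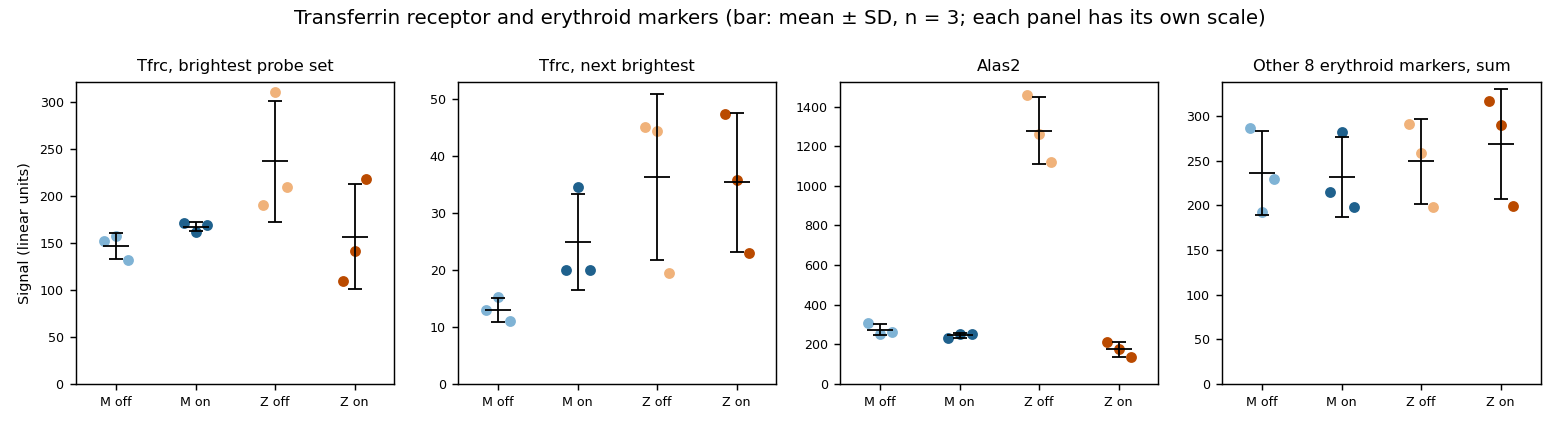
Linear signal on each array of the lead and the next brightest tested Tfrc probe set, of Alas2, and of the sum over the other 8 erythroid markers; points are arrays, bars the mean ± SD (n = 3), and each panel has its own scale. The lead Tfrc probe set and Alas2 have their highest means in Z off (237 and 1280), while the sum of the other markers overlaps between all groups.

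No probe set for iron export or oxidation passed the test. Slc40a1 read 1450 ± 48.6 in M off, 1710 ± 284 in M on, 1320 ± 283 in Z off and 1530 ± 279 in Z on. The on to off difference was 0.22 in Z mice (from -0.27 to 0.72) and 0.22 in M mice (from -0.28 to 0.71), with groups that overlapped. Its dimmer probe set (1448566_at) differed by 0.08 and 0.10. Ferroportin protein, the target of hepcidin, was not measured.

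Cp had 7 probe sets of very unequal brightness. The lead (1417494_a_at) read 7310 ± 568 in M off, 6580 ± 436 in M on, 6640 ± 665 in Z off and 6390 ± 995 in Z on, with differences of -0.06 (from -0.46 to 0.33) in Z mice and -0.15 (from -0.55 to 0.25) in M mice. The 4 next brightest differed by -0.29 to 0.01 between Z on and Z off. The dimmest (1417497_at) read 1.8, 5.0 and 3.6 in Z off and 15.5, 33.9 and 25 in Z on. The groups lay apart by 2.89 (from 1.02 to 4.76, adjusted p = 0.671 in limma). This was the smallest adjusted p of an iron gene probe set in that comparison. The M arrays read 31.1, 14.9 and 4.6 off and 28.4, 35.2 and 5.5 on, so Z on lay within their range and Z off had the lowest mean. Z off minus M off was -2.01 (adjusted p = 0.62). On 1448735_at Z off (9.3, 11.1 and 10) also lay below M off (16, 17 and 26.6), by -0.94 (adjusted p = 0.578). Both probe sets lie in the lower part of the scale (percentiles 25.6 and 30.7 of mean log2 signal). In M on, the probe set 1417496_at read 499.7, 77.2 and 448.5, and its M on minus M off difference was -1.07 with replicate 2 included.

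Ferritin heavy chain read higher in Z than in M mice in both states on its lead probe set, without passing the test. The lead Fth1 probe set (1427021_s_at) read 9025.1, 8176.7 and 7618.6 in M off, 10233.8, 8301.2 and 7417.9 in M on, 9986.8, 11294.3 and 10230.5 in Z off, and 10380.5, 11133.2 and 10562.0 in Z on. Z off lay above M off and Z on above M on without overlap, by 0.35 (from -0.04 to 0.73, adjusted p = 0.682) and 0.32 (from -0.06 to 0.70, adjusted p = 0.785). Over both states the Z minus M difference was 0.33 (from 0.06 to 0.60, SE 0.12, adjusted p = 0.446) and did not pass. The on to off differences were 0.03 in Z mice and 0.05 in M mice. On the other probe set (1448771_a_at) the groups of each line comparison overlapped, with Z minus M at 0.12 (from -0.13 to 0.37). It read 6380 ± 71.1 in M off, 6930 ± 230 in M on, 7320 ± 934 in Z off and 7200 ± 489 in Z on. On it, all M on arrays lay above all M off arrays, by 0.12 (from -0.23 to 0.47).

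Ferritin light chain had a smaller spread of the same kind in the off groups. The lead Ftl1 probe set (1418364_a_at) read 3895.9, 3948.0 and 3444.7 in M off and 3964.2, 4591.7 and 4788.5 in Z off, apart by 0.24 (from -0.15 to 0.62, adjusted p = 0.796). M on was at 4975.4, 3713.7 and 4198.0 and Z on at 4241.0, 4358.5 and 3861.6, a difference of -0.04. The next probe set (1422302_s_at) differed by 0.19 between Z off and M off and by 0.01 between Z on and M on. Since ferritin genes have processed copies, of which Ftl1-ps2 is named by the annotation, these signals may hold more than a single gene.

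Slc11a2 was the only lead probe set whose intervals left out 0 for both averaged contrasts, before adjustment. The probe set (1426441_at) read 125.2, 118.5 and 103.2 in M off, 96.6, 77.8 and 90.7 in M on, 148.7, 150.0 and 162.5 in Z off, and 96.1, 103.7 and 157.9 in Z on. M on lay below M off and Z off above M off without overlap, and Z on replicate 3 alone of the Z on arrays lay with Z off. On minus off was -0.40 over both lines (from -0.73 to -0.06, SE 0.15, adjusted p = 0.786), with -0.40 in Z mice and -0.39 in M mice. When the 3 probe sets of the gene were averaged it was -0.22 over both lines and -0.11 in M mice. Z minus M was 0.41 over both states (from 0.07 to 0.74, adjusted p = 0.454). Neither passed. Of the dimmer probe sets, 1452078_a_at had an on minus off difference of -0.39 (from -1.23 to 0.44) and 1417584_at of 0.13 (from -0.58 to 0.84). Their Z minus M differences were -0.04 and 0.10, so neither repeated the line difference of the lead, which was 0.16 when the 3 probe sets were averaged.

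**Figure D4:**
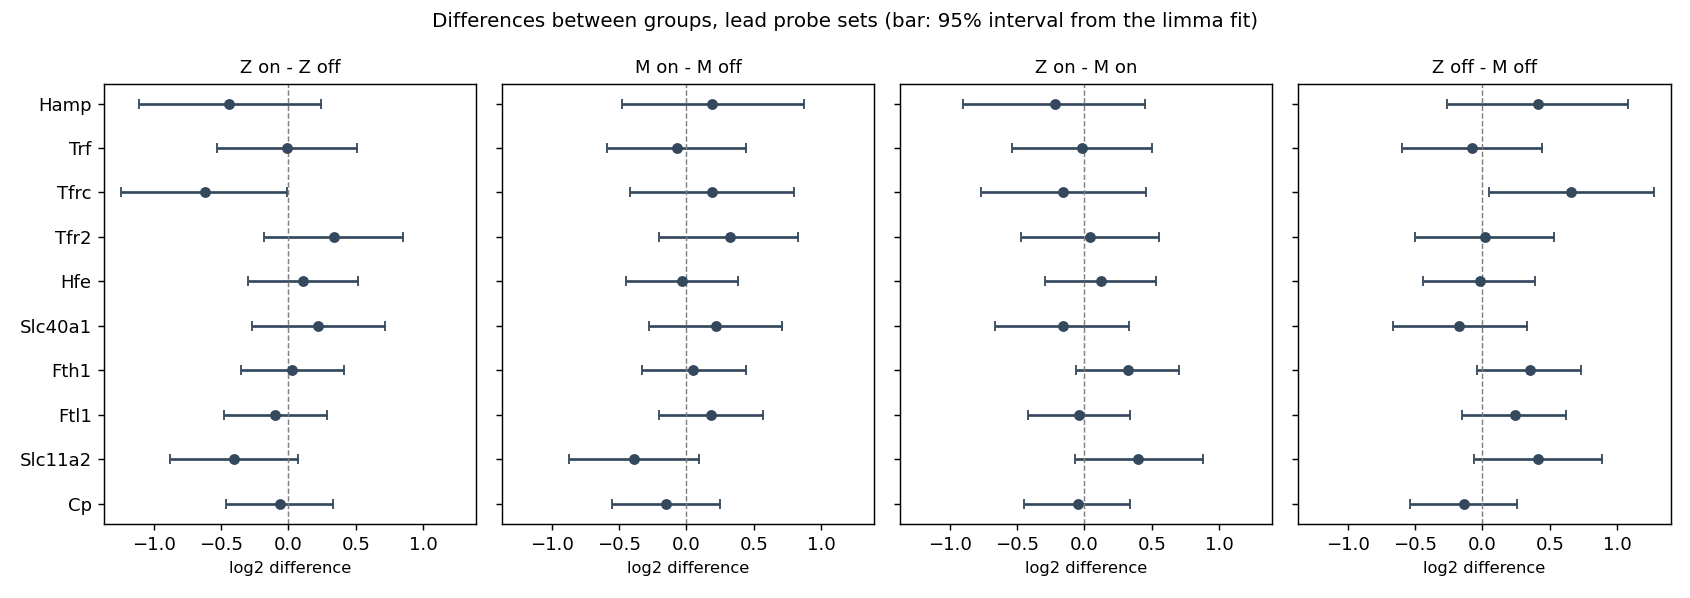
Log2 differences of the lead probe set of each iron handling gene in 4 pairwise comparisons; points are estimates from limma over all 12 arrays and bars are 95% intervals of the single difference, with no adjustment for the number of probe sets. The intervals of Tfrc leave out 0 for Z on minus Z off (-1.24 to -0.01) and Z off minus M off (0.05 to 1.27), and all others include 0.

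The remaining genes of iron metabolism, in 3 lists, gave no call in limma in any of the 7 contrasts. For scale, 47% of all probe sets read higher in Z on than Z off (median -0.03). In M on against M off 48.9% did (median -0.01). Of iron regulatory proteins and iron-dependent control 10 of 12 entries had a probe set. Between Z on and Z off 7 were higher and 3 lower with a median of 0.28, the largest median of the iron lists. Its smallest p belonged to Skp1, a ubiquitin ligase subunit (0.69, SE 0.30, adjusted p = 0.791), followed by the hypoxia regulator Vhl (-0.85, adjusted p = 0.798) and Ireb2, which encodes an iron regulatory protein (0.44, adjusted p = 0.853). Between M on and M off the count was 5 and 5, with a median of 0.03. Of 23 entries for other iron and heme-iron transport and reduction 22 had a probe set, with 9 higher and 13 lower in Z mice (median -0.04) and 4 higher and 18 lower in M mice (median -0.13). In M mice Slc25a37, the mitochondrial iron importer mitoferrin, differed by -0.56 (SE 0.18, adjusted p = 0.762) and the heme oxygenase Hmox2 by -0.37 (adjusted p = 0.942), both with groups apart. In Z mice the heme-binding plasma protein Hpx read 9680 ± 265 on and 11700 ± 927 off (-0.27, adjusted p = 0.865), without overlap. Over all probe sets, groups lay apart on 10.5% in the M pair and on 11.8% in the Z pair. Of iron-sulfur cluster and mitochondrial iron genes 9 of 15 had a probe set, with 4 higher and 5 lower in Z mice and 3 higher and 6 lower in M mice. Over these lists together with those upstream of Hamp and the acute phase list, 88 of 105 entries had a probe set. In Z mice 3 were higher and 3 lower at an unadjusted p under 0.05, where 6.29% of all probe sets passed it, and in M mice 2 and 2, where 5.18% did, so these counts lie near the background.

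Among 7033 other genes above the median level, those whose log2 signal followed the lead Hamp probe set most closely over the 12 arrays were Haao (Pearson r = 0.81), Ipo4 (0.79), Aarsd1 (0.79), Senp3 (0.78) and C8b (0.77). Those closest to the lead Tfrc probe set were Bsg (0.91), Chid1 (0.91), Pglyrp2 (0.89), Dctn5 (0.88) and Cdk2ap2 (0.87). The points of these correlations share their array and its scaling, and the highest of all candidates are given, so they are a description. None of these 10 genes is among the iron genes. Bsg had its highest mean in Z off, as Tfrc had, at 1510 against 1330 in M off, 1330 in M on and 1300 in Z on. Because Bsg was picked for following Tfrc over these same arrays, this shared order is no separate observation.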

How the data were processed

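Liver RNA of 12 mice was hybridised to single-colour Affymetrix arrays. The deposited values are intensities, a linear signal per probe set. The submitters' processing notes name RMA, yet the values are linear with array medians from 38.7 to 47, whereas RMA usually gives log2 values, so background correction and summary are not given in the sources used here. Depth does not apply to arrays, where their number limits precision.

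Signals were taken to log2 after 1 value at 0 or below was set to 0.1. Control probe sets (64) were left out, leaving 22626. Group means were estimated from the 12 arrays jointly in limma 3.58.1 in R 4.3.3 (lmFit, eBayes, two-sided) and 7 contrasts were taken, with Benjamini-Hochberg adjustment. P-values measure the spread between these animals only. The fit was tested on simulated data.

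Gene names came from the platform annotation; RefSeq changed 0 symbols. From each list, up to 4 members with the smallest p in each on to off comparison could be named, and up to 5 genes most like Hamp or Tfrc. Names beyond that are marked. Members and lists were chosen with earlier results of these data known. Lists were counted on lead probe sets with 1 symbol, and no set test was run. An entry is a symbol, and some genes were entered under an older and a newer symbol. An entry without such a probe set may thus still be measured by the array.

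Alternatives were quantile normalization, median centring, adding 16 or 50 to signals, an intensity trend with robust variances, brighter probe sets only, only the groups compared, a replicate block, array weights, the mean of a gene's probe sets and omission of each array. Including control probe sets, and quantile normalization with a replicate block, were chosen after seeing the data.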

Additional observations from a re-analysis of the deposited data

How the results depend on the processing

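The count of iron gene probe sets called in limma was 0 in all 7 contrasts and stayed 0 under every alternative run and every omission of an array (lowest 0, highest 0). The smallest adjusted p of an iron gene probe set under any of these was 0.129, for the lead Fth1 probe set in the Z against the M line with an intensity trend and robust variances. With a replicate block 0 were called, and the smallest adjusted p was 0.697 in Z on against Z off, 0.801 in M on against M off and 0.344 in Z off against M off. Arrays with the same replicate number in different groups deviated together only weakly (r from -0.08 to 0.16 over 18 pairs). For arrays of different number r ran from -0.18 to 0.16 over 36 pairs. For 6 arrays the best match in another group had their own number, and for the others it did not. These correlations do not exclude an order confined to bright probe sets, such as that of Trf, Alb and Ttr described above. What arrays of the same number share was not tested. With the block the calls over all probe sets went from 16 to 6 in Z off against M off and from 3 to 1 in Z on against Z off.

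Of 70 differences of lead probe sets, 38 kept their sign under all alternatives run. Of 1410 alternative values 73 had the opposite sign, all for differences that were not called. By more than 1 SD between replicates 10 moved, all when a gene's probe sets were averaged, for Cp, Hfe and Slc11a2. The Tfrc difference between Z on and Z off ranged from -0.89 to -0.33 and that between Z off and M off from 0.44 to 0.80. The Fth1 difference between the lines ranged from 0.23 to 0.40, that of Slc11a2 from 0.16 to 0.48, and the Hamp2 difference between M on and M off from 0.90 to 1.56. Signals near 0 limit the dim probe sets, and 4 of the 27 tested lay below the median level.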
